A study of Mus musculus with 4 samples.

Results

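The 10 SOX genes described here are the neural members of the SoxB, SoxC, SoxD and SoxE groups of transcription factors: Sox2, Sox1 and Sox21 (SoxB), Sox4 and Sox11 (SoxC), Sox6 and Sox5 (SoxD), and Sox9, Sox8 and Sox10 (SoxE). They were chosen by gene symbol, and are 10 of 32564 genes to which the deposited transcripts could be assigned. RNA was measured in 4 libraries of 1 group, adult neural stem cells that the labels call activated, sorted by flow cytometry as Prom1+, EGFR+ and GFAP+ from untreated gfap:GFP mice aged 3 months on a mixed CD1/C57BL/6 background. The reporter follows the Gfap promoter, which parenchymal astrocytes also use. No control group is labelled, so levels are compared between SOX genes within libraries. The design text of the series instead speaks of quiescent cells and of an injection of aCSF or of antagomers against miR204, which no label names. If it applied, the spread between libraries could hold a treatment difference.

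The libraries held 16978938 to 23727664 estimated counts. The sorting markers were present in all of them, with Gfap between 107 and 227 TPM, Egfr between 71.6 and 121 TPM and Prom1 between 14.6 and 31.7 TPM (TPM is the relative level of a transcript, corrected for its length and scaled to the same total in every library). No pair of libraries agreed within sampling noise (chi-square per degree of freedom 42.9 to 60.8 over genes). The labels do not state whether each library is a different animal, so SDs and p-values cover only the spread between these samples, which may be technical.

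SOX proteins bind the minor groove of DNA through a shared HMG box and bend it, and they act with partner factors. SoxB1 proteins (Sox2, Sox1) keep neural cells in a progenitor state, and the SoxB2 protein Sox21 counteracts them. SoxC proteins are switched on as cells commit to a neuronal fate. SoxD proteins have no activation domain of their own and modulate other SOX proteins. Among SoxE proteins, Sox9 sets up glial and stem cell fates, while Sox10, with help from Sox8, drives oligodendrocyte differentiation.

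Related SOX genes carry stretches of identical coding sequence, and a read that falls within such a stretch fits more than 1 gene. The longest exact runs shared by members are shown because they bound how far the counts of relatives could mix. They are given in lower case, 5′ to 3′, from the GENCODE M21 transcripts (GRCm38).
Sox4 (chr13:28952749-28952796, minus strand) and Sox11 (chr12:27342166-27342213, minus strand): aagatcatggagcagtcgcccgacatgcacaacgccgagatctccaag
Sox9 (chr11:112782831-112782874, plus strand) and Sox10 (chr15:79163430-79163473, minus strand): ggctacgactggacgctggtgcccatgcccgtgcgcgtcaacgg
Sox2 (chr3:34650608-34650645, plus strand) and Sox1 (chr8:12396577-12396614, plus strand): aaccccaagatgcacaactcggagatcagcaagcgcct
Sox2 (chr3:34650614-34650651, plus strand) and Sox21 (chr14:118235505-118235542, minus strand): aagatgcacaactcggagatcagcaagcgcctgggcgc
The runs measured 48, 44, 38 and 38 bases, and all 4 lay in coding exons. The Sox4 and Sox11 run and both Sox2 runs belong to the HMG box. Among all 45 pairs of members the longest run ranged from 12 to 48 bases, with a median of 36.5 bases within a group and 17 bases between groups. Only 5 pairs, all within a group, shared 31 bases or more, which is the default word length of kallisto. Between 98.7% (Sox9) and 100% (Sox6) of each member's 31-base words occurred in no other quantified gene.

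All 10 members were detected in every library and all 10 were called above 1 TPM (limma with Benjamini-Hochberg adjustment, adjusted p from 1.0e-08 to 3.8e-05, n = 4). Of all 19914 genes tested, 62.8% were called above that level and 23.2% below it. The median of the members' mean levels was 68.0 TPM, against 8.34 TPM over all genes tested. In bulk samples such as these, fewer cells of a type and less RNA per cell cannot be told apart.

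Among SoxB genes, Sox2 was the most abundant. Sox2 (chr3:34650405-34652461) had 258, 234, 322 and 285 TPM in libraries 1 to 4. Sox21 (chr14:118233232-118237030) had 52.6, 58.4, 85.2 and 71.2 TPM. Sox1 (chr8:12395295-12400126) had 15.6, 11.2, 11.0 and 13.1 TPM. The ranges of the 3 genes did not overlap. Sox2 and Sox21 were both highest in library 3 and next highest in library 4, while Sox1 was highest in library 1. Sox2 exceeded the other SoxB1 gene Sox1 by 4.33 ± 0.32 on the log2(TPM + 1) scale (SD, n = 4), a 20.1-fold difference, and exceeded Sox21 by 2.04 ± 0.16, or 4.11-fold. Sox21, the antagonist of the group, exceeded Sox1 by 2.29 ± 0.47, or 4.89-fold. Each direction held in 4 of 4 libraries (exact sign-flip permutation test, two-sided, p = 0.125 for each and after adjustment over 8 pairs, the smallest p that 4 libraries allow). The Sox2 transcript is short, so that the ratio of Sox2 over Sox1 was 3.10 on the log2 scale (8.60-fold) and that of Sox2 over Sox21 was 1.11 (2.16-fold) in counts scaled only to the library total (CPM).

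**Figure D1:**
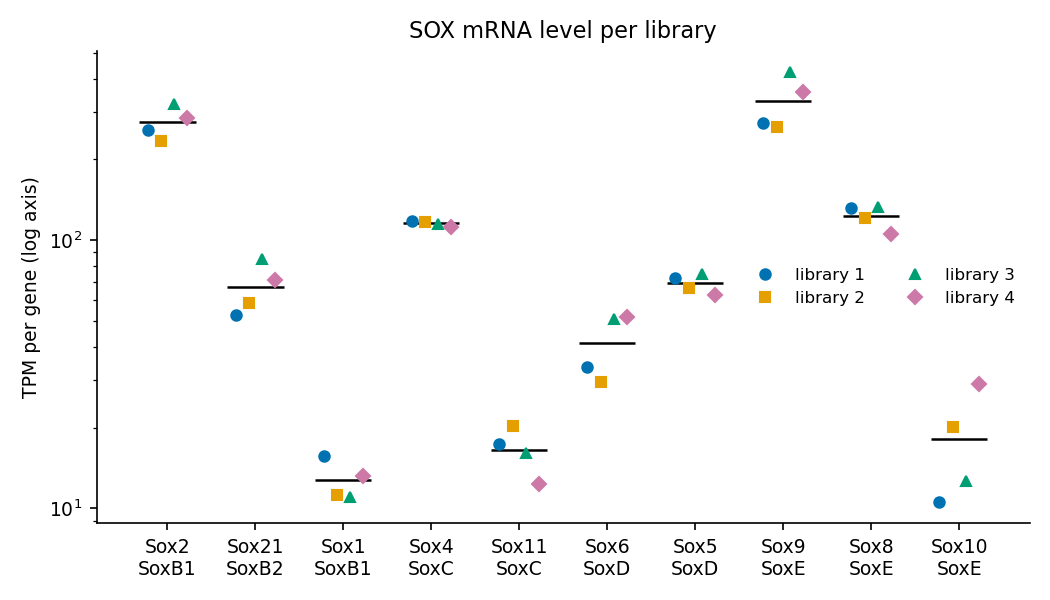
Level of each SOX gene in each library, in TPM on a log axis; points are the 4 libraries and the black line is their mean, with the group of each gene under its name. Sox9 and Sox2 lie highest, Sox4 points nearly coincide, and the Sox10 points spread from 10.6 to 29.1 TPM.

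Of the SoxC genes, Sox4 stood far above Sox11. Sox4 (chr13:28948919-28953713) had 118, 117, 115 and 112 TPM in libraries 1 to 4. Sox11 (chr12:27334264-27342574) had 17.4, 20.3, 16.03 and 12.4 TPM. The values did not overlap, and both genes were lowest in library 4. Sox4 exceeded Sox11 by 2.75 ± 0.25 on the log2(TPM + 1) scale (SD, n = 4), in 4 of 4 libraries (exact sign-flip test, p = 0.125). The ratio was 2.001 on the log2 scale without length correction, which is 4.003-fold in place of 6.74-fold. On the opposite strand the non-coding gene Gm26735, which is not among the quantified genes, covers 2616 of the 4795 exonic bases of Sox4. The cDNA kit does not mark strand, so reads from both genes cannot be told apart there. Any from Gm26735 could be counted for Sox4, and their part in its level and spread was not tested.

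SoxD genes have many annotated transcripts, and their summed levels rested largely on short ones. Sox6 (chr7:115470872-116038796) had 33.7, 29.7, 50.8 and 51.7 TPM in libraries 1 to 4. Sox5 (chr6:143828425-144781977) had 72.5, 66.6, 74.8 and 62.7 TPM. The values of the 2 genes did not overlap. Sox6 was higher in libraries 3 and 4 than in libraries 1 and 2, and Sox5 was not. Sox6 was lower than Sox5 in 4 of 4 libraries, with a log2 ratio of (TPM + 1) of -0.76 ± 0.42 (SD, n = 4; exact sign-flip test, p = 0.125).

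Of 16 annotated Sox6 transcripts 14 had a count, and no single one dominated. Sox6-211, a fragment of 448 bases annotated as coding, held 30.96 ± 4.27% of Sox6 TPM (SD, n = 4) but only 4.68 ± 1.34% of its counts. It rested on 36.4 to 81.8 counts per library. The retained-intron transcript Sox6-209 (2258 bases) held 18.4 ± 2.53% of TPM. The fragments Sox6-207 (331 bases) and Sox6-208 (479 bases) held 16.8 ± 3.69% and 11.2 ± 2.73%. The leading full-length form by mean level was Sox6-210, of 8668 bases with 2358 coding bases, at 11.0 ± 6.40% of TPM and 44.7 ± 20.7% of counts. Its level was 3.86, 5.63, 1.71 and 5.25 TPM in libraries 1 to 4, so library 3 was the lowest. There Sox6-205 (5122 bases, 2361 coding bases) at 3.59 TPM and Sox6-202 (8193 bases, 2355 coding bases) at 2.05 TPM stood above it. Both were named after their values were seen. All 5 quantified transcripts under 1000 bases together held 60.0 ± 4.74% of Sox6 TPM but 8.29 ± 1.80% of its counts.

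Of 14 annotated Sox5 transcripts 11 had a count. Sox5-202 led, with 2526 bases and 2145 coding bases, at 23.8, 21.5, 21.8 and 23.1 TPM in libraries 1 to 4. That was 32.8 ± 3.18% of Sox5 TPM (SD, n = 4) and 49.2 ± 5.42% of its counts, and its values lay within a narrow range. Sox5-211 (669 bases, annotated as coding) held 23.4 ± 4.43% of TPM and the non-coding Sox5-208 (351 bases) held 22.7 ± 6.15%. Sox5-208 rested on 33.3 to 48.2 counts per library. Sox5-205 (3879 bases, 2037 coding bases) and the retained-intron transcript Sox5-213 (633 bases) held 5.93 ± 2.06% and 5.86 ± 2.08%. The 4 transcripts under 1000 bases held 51.9 ± 3.13% of Sox5 TPM and 12.2 ± 0.48% of its counts.

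When only coding transcripts of at least 1000 bases were summed, an alternative chosen after the data were seen, Sox6 had 7.47, 7.41, 9.22 and 7.93 TPM in libraries 1 to 4. Sox5 had 33.5, 27.1, 29.4 and 29.98 TPM. Library 3 was then the highest for Sox6 and library 1 for Sox5. The log2 ratio of Sox6 over Sox5 was -1.78 ± 0.19 (SD, n = 4), or 3.44-fold lower in place of 1.69-fold. Without length correction, over all transcripts, it was -0.44. The direction was the same each time, and the size was not. Kallisto divides reads among transcripts by estimate, so each share is an estimate too. The antisense gene Sox5os1, which is not among the quantified genes, shares 1330 exonic bases with Sox5.

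**Figure D2:**
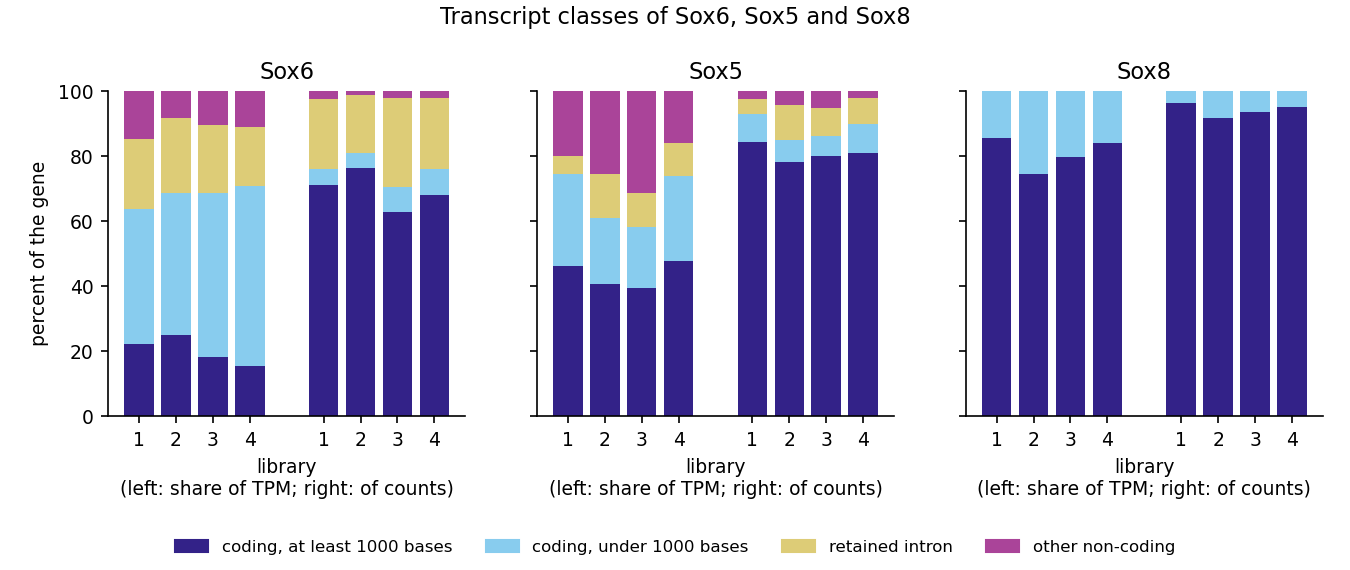
Share of each transcript class in the TPM (left 4 bars) and in the estimated counts (right 4 bars) of Sox6, Sox5 and Sox8, in percent, per library. For Sox6 and Sox5 the classes under 1000 bases and without coding sequence fill more of the TPM than of the counts; for Sox8 the transcript of at least 1000 bases fills most of both.

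SoxE genes were led by Sox9, the most abundant of all 10 members. Sox9 (chr11:112782224-112787760) had 275, 264, 423 and 356 TPM in libraries 1 to 4. Sox8 (chr17:25565892-25570686) had 132, 121, 133 and 105 TPM. Sox10 (chr15:79154908-79165240) had 10.6, 20.2, 12.6 and 29.1 TPM. The ranges did not overlap, but the libraries differed in order: Sox9 was highest in library 3, Sox8 was lowest in library 4, and Sox10 was highest in library 4. Sox9 exceeded Sox8 by 1.40 ± 0.36 on the log2(TPM + 1) scale (SD, n = 4), or 2.63-fold, and exceeded Sox10 by 4.19 ± 0.69, or 18.2-fold. Sox8 exceeded Sox10, its partner in oligodendrocytes, by 2.79 ± 0.78, or 6.92-fold. Each direction held in 4 of 4 libraries (exact sign-flip permutation test, p = 0.125 for each). Without length correction Sox9 exceeded Sox8 by 2.10 (4.30-fold) and Sox10 by 4.86 (29.1-fold).

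Sox8 was carried by its full-length transcript Sox8-201 (3000 bases, 1392 coding bases), at 80.9 ± 5.05% of TPM (SD, n = 4) and 94.2 ± 2.01% of counts. The shorter Sox8-202 (928 bases, 663 coding bases) held 17.8 ± 6.06% of TPM, from 10.8% in library 1 to 24.7% in library 2. The antisense gene 2810468N07Rik, which is not among the quantified genes, shares 329 exonic bases with Sox8. The other 7 members (Sox2, Sox21, Sox1, Sox4, Sox11, Sox9 and Sox10) had a single quantified transcript each, so no isoform share can be given for them. Of these, Sox2, Sox21, Sox1, Sox4 and Sox11 are encoded by 1 exon, Sox9 by 3 exons and Sox10 by 4 exons. Gm4675, an antisense gene that is not among the quantified genes, covers 713 of the 3799 exonic bases of Sox21. The long non-coding gene Sox2ot spans Sox2 but shares no exonic base with it.

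**Figure D3:**
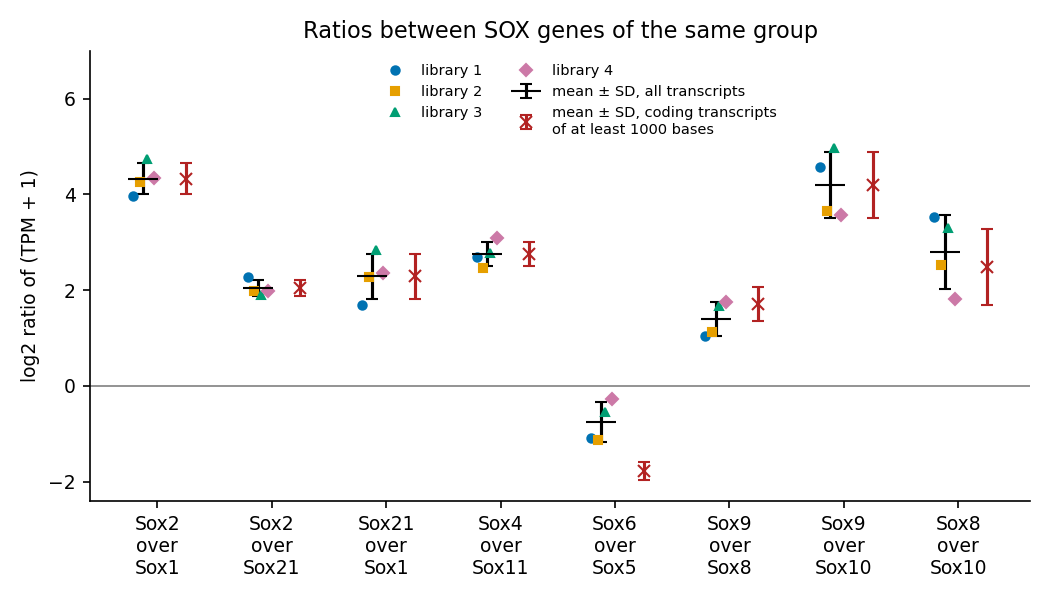
Log2 ratio of (TPM + 1) between genes of the same SOX group; points are the 4 libraries, black bars the mean ± SD over all transcripts, and red crosses the mean ± SD (n = 4) when only coding transcripts of at least 1000 bases were summed. Of 8 ratios 7 lie above 0 in all 4 libraries, and Sox6 over Sox5 lies below 0 and drops to -1.78 with the longer coding transcripts.

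In descending order of mean level over all transcripts the members were Sox9 (329 TPM), Sox2 (275 TPM), Sox8 (123 TPM), Sox4 (115 TPM), Sox5 (69.1 TPM), Sox21 (66.9 TPM), Sox6 (41.5 TPM), Sox10 (18.1 TPM), Sox11 (16.5 TPM) and Sox1 (12.8 TPM). Sox9 ranked 317 and Sox2 ranked 414 among the 19914 genes tested. Of the 9 neighbours in this order, 4 did not differ beyond their spread. Sox8 over Sox4 gave a log2 ratio of 0.08 ± 0.13 (SD, n = 4; exact sign-flip test, p = 0.375), Sox5 over Sox21 gave 0.07 ± 0.31 (exact, p = 0.75), Sox10 over Sox11 gave 0.04 ± 0.80 (exact, p = 1) and Sox11 over Sox1 gave 0.34 ± 0.39 (exact, p = 0.25). Sox9 was above Sox2 in 4 of 4 libraries, by 0.24 ± 0.14 (exact, p = 0.125). Part of this order depended on short transcripts. With coding transcripts of at least 1000 bases only, Sox6 was last of the 10 at 8.01 TPM, against 12.8 TPM of Sox1 (log2 ratio -0.60 ± 0.30; exact, p = 0.125). Sox5 was then lower than Sox21 in 4 of 4 libraries (log2 ratio -1.11 ± 0.36; exact, p = 0.125), and Sox8 was lower than Sox4 in 4 of 4 (-0.22 ± 0.16; exact, p = 0.125).

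Taken as groups, SoxE held 43.9 ± 1.53% of the TPM of the 10 genes (SD, n = 4), SoxB held 33.2 ± 0.67%, SoxC held 12.5 ± 1.92% and SoxD held 10.4 ± 0.30%. With coding transcripts of at least 1000 bases only, SoxD held 3.95 ± 0.477%, SoxC 13.8 ± 2.15%, SoxB 36.5 ± 0.574% and SoxE 45.8 ± 1.99%. SoxE was the largest group in each library, from 42.4 to 45.7%. The SoxC share was lower in libraries 3 and 4 (10.5 and 11.3%) than in libraries 1 and 2 (13.7 and 14.6%). The total of the 10 genes was 985, 942, 1243 and 1098 TPM in libraries 1 to 4. Mitochondrial genes took 16.55, 18.38, 13.49 and 15.67% of all TPM in the same libraries. Since TPM has a fixed total, a lower share of these leaves more for all other genes. Their part in the order of libraries was not tested.

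The members differed widely in how much they varied between libraries. Sox4 was the most constant, with a coefficient of variation of 2.22% and an SD of 0.03 on the log2(TPM + 1) scale. Only 0.127% of the 9433 genes of at least 10 TPM had a smaller SD. Leaving out 1 library at a time placed Sox4 between the 0.360 and 2.10 percentile. These SDs and percentiles were taken on the deposited TPM only, and how they depend on the scaling of libraries was not tested. Sox5 (SD 0.11, 9.28 percentile), Sox8 (0.16, 20.6 percentile), Sox2 (0.20, 33.9 percentile) and Sox1 (0.22, 40.3 percentile) also lay below the median SD of 0.25. Sox11 (0.28), Sox21 (0.30), Sox9 (0.32), Sox6 (0.40) and Sox10 (0.62) lay above it. The place of Sox6 depended on short transcripts. Those under 1000 bases had 25.3 ± 8.68 TPM, and its coding transcripts of at least 1000 bases had 8.01 ± 0.84 TPM (SD, n = 4 each). Sox10 stood at the 95.5 percentile, with a 2.75-fold range between libraries, and at the 87.4 percentile without library 4.

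**Figure D4:**
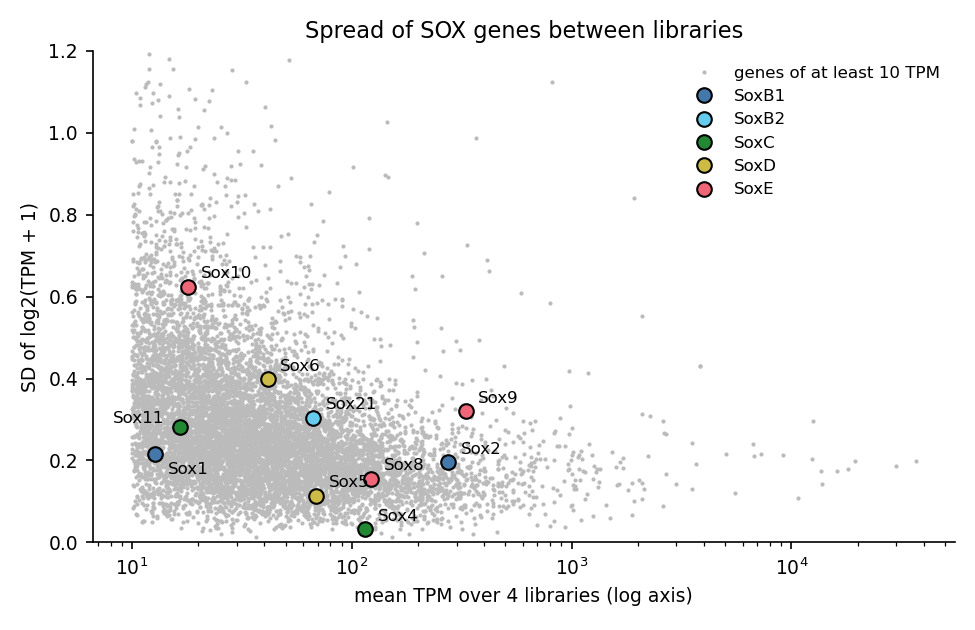
SD of log2(TPM + 1) over the 4 libraries against mean TPM (log axis) for genes of at least 10 TPM (grey; 37 genes with an SD above 1.2 lie outside the axis) and for the 10 SOX genes (coloured by group). Sox4 lies at the lower edge of the grey points and Sox10 above most of them.

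The Sox10 values were set beside oligodendrocyte genes, since Sox10 is a defining factor of that lineage. All 12 oligodendrocyte genes listed were called above 1 TPM, as were 62.8% of all genes tested, and their median level was 61.4 TPM. Their summed level was 2542, 3749, 3393 and 4432 TPM in libraries 1 to 4. Sox10 and this sum had the same order of libraries, with library 1 lowest, then library 3, library 2 and library 4. Of the 12 genes, 7 (58.3%) were lowest in library 1 and highest in library 4, as Sox10 was, against 10.3% of the 9433 genes of at least 10 TPM. The list was not cut at 10 TPM. Myrf (mean 6.95 TPM) and Cldn11 (mean 6.18 TPM), both among the 7, lay below that level. The tight junction gene Cldn11 had 1.35, 8.21, 5.65 and 9.52 TPM. The myelin gene Mbp had 1774, 1608, 1471 and 1969 TPM and was not low in library 1. Mobp had 341, 335, 312 and 405 TPM and was not low there either. Library 1 was the lowest for 10 of the 12 genes. Relative to its own mean on the log2(TPM + 1) scale, Sox10 was at -0.62 in library 1, within the range of the 12 genes there (-2.63 to 0.07). In library 3 it was at -0.39, below the range of all 12 (-0.20 to 1.15). Of 10 microglia genes 5 also had library 1 lowest and library 4 highest. The part of other cells in the Sox10 level was not tested.

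Oligodendrocyte precursors also express Sox10, and their genes were in another order of libraries. Of 10 such genes 8 were called above 1 TPM and 2 were open, against 62.8% above among all genes tested. The sum of the 10 was 381, 349, 356 and 436 TPM in libraries 1 to 4. Olig1 had 108 ± 17 TPM and Bcas1 had 64.5 ± 9.63 TPM, and the lowest was the protocadherin gene Pcdh15 (0.925 ± 0.71 TPM; SD, n = 4 each). Library 4 was the highest for 7 of the 10 genes, and library 1 was the lowest for 1. Among all 9433 genes of at least 10 TPM, 2529 were highest in library 4 and 2833 were lowest in library 1. The list was not cut at that level.

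**Figure D5:**
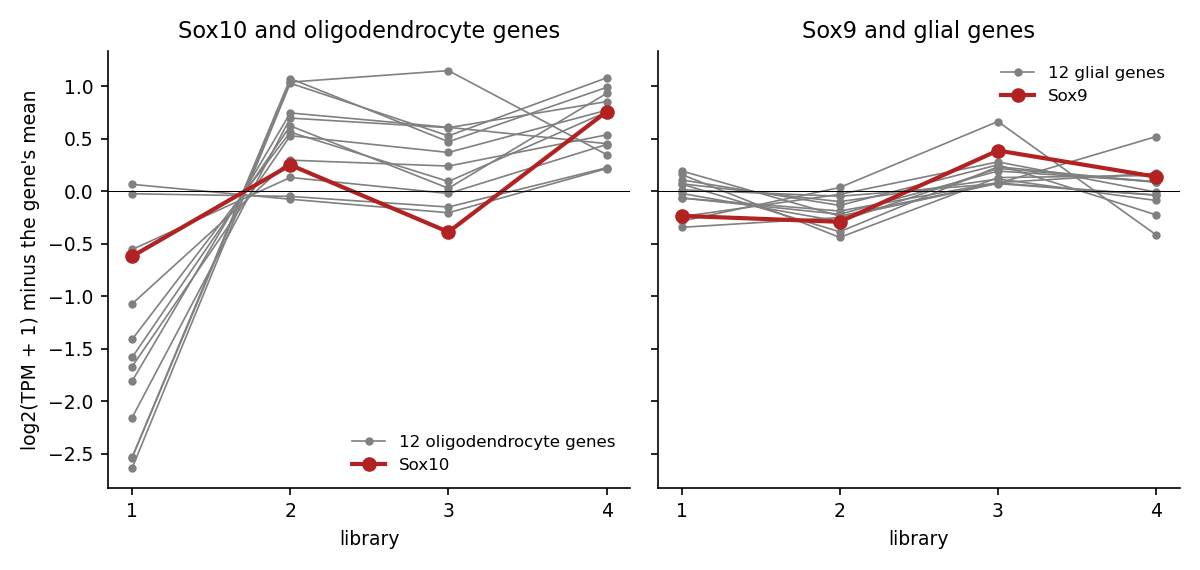
Log2(TPM + 1) of each gene minus its own mean over the 4 libraries, for Sox10 with 12 oligodendrocyte genes (left) and for Sox9 with 12 glial genes (right). Most oligodendrocyte genes and Sox10 lie lowest in library 1; the glial genes and Sox9 stay within a narrower band and mostly peak in library 3.

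Genes of glial competence were read with Sox9, which is known to induce Nfia and to act with it. All 12 were called above 1 TPM, as were 62.8% of all genes tested, and their median level was 204 TPM. The glutamate transporter Slc1a3 (1009 ± 145 TPM), Mmd2 (353 ± 61.0 TPM), a known common target of Sox9 and Nfia, and the zinc finger factor Zbtb20 (309 ± 23.6 TPM) were highest, and Apcdd1 (13.0 ± 2.56 TPM), also such a target, was lowest (SD, n = 4 each). Of these genes 8 were highest in library 3, as Sox9 was, and 8 were lowest in library 2, as Sox9 was. Among all 9433 genes of at least 10 TPM, 3644 were highest in library 3 and 3079 were lowest in library 2. The sum of the list was 3029, 2671, 3568 and 3230 TPM in libraries 1 to 4.

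Partners and stem cell genes of the SoxB group were all above 1 TPM, 12 of 12, with a median of 24.1 TPM. Over all genes tested, 62.8% were called above that level. Fabp7 (365 ± 39.5 TPM), a fatty acid binding protein of radial glia, the Notch target Hes5 (321 ± 67.4 TPM) and the chromatin remodeller Chd7 (84.6 ± 13.1 TPM), a known partner of Sox2, were highest, and the Hedgehog effector Gli2 (8.58 ± 0.997 TPM) was lowest (SD, n = 4 each). Genes of neuronal commitment, the stage at which SoxC proteins act, were above 1 TPM for 10 of 12 members, with a median of 24.8 TPM. The homeobox genes Dlx2 (228 ± 43.0 TPM) and Dlx1 (145 ± 12.2 TPM) were the highest. The 2 members called below 1 TPM were Neurog2 (0.384 ± 0.447 TPM) and Neurod1 (0.0886 ± 0.177 TPM), factors of excitatory neurons. Neurog2 was named after its value was seen. The sum of the list was 923, 786, 852 and 746 TPM in libraries 1 to 4, highest in library 1 and lowest in library 4. Sox4 was also highest in library 1 and lowest in library 4. Its values were nearly equal (118, 117, 115 and 112 TPM in libraries 1 to 4), so this order says little. Sox11 was highest in library 2 and lowest in library 4.

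Other SOX genes stood lower than most members. Of the 10 listed, 3 were called above 1 TPM, 2 below, 3 were open and 2 had no count. Over all genes tested, 62.8% were called above and 23.2% below. The third SoxD gene Sox13 had 19.9, 28.2, 25.8 and 39.5 TPM in libraries 1 to 4, the SoxC gene Sox12 had 13.6, 14.04, 13.6 and 11.98 TPM, and the SoxB1 gene Sox3 had 5.54, 9.64, 12.8 and 10.6 TPM. Sox13, like Sox10, was lowest in library 1 and highest in library 4. In endothelial cells the SoxF genes Sox7, Sox17 and Sox18 are active. Sox7 (1.73 ± 1.14 TPM) and Sox18 (0.716 ± 0.664 TPM) were open (SD, n = 4 each), and Sox17 had 0 counts in every library, which allows up to 0.175 TPM at 3 counts. Of 8 endothelial or mural genes, 2 were above 1 TPM, and the endothelial cadherin gene Cdh5 had 0 counts. Sox15, also at 0 counts, may reach 0.392 TPM. These limits cover counting error only.

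For Sox14, Sox7 and Sox18 the outcome changed when 1 library was left out. Sox14, the other SoxB2 gene, was open at 0.803, 0, 0.0957 and 4.46 TPM in libraries 1 to 4, and without library 4 it was called below 1 TPM (log2 difference -0.67). Sox7 was called above it without library 1 (0.69), and Sox18 below it without library 2 (-0.53). Sox30 (0.222 ± 0.258 TPM) and Sry (0.0537 ± 0.0722 TPM; SD, n = 4 each) were called below 1 TPM with each library left out. The edgeR quasi-likelihood test lost the call of Sox30 (adjusted p = 0.133) and kept that of Sry.

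Markers of further cell types differed in how far they were detected. The counts below stand against 62.8% called above 1 TPM and 23.2% below it among all 19914 genes tested. Genes of ependymal cells, which also express Sox9, were above 1 TPM for 10 of 10 members, with sums of 650 to 1315 TPM per library. Microglia genes were above it for 10 of 10 members (138 to 445 TPM), and mature neuron genes for 9 of 10 (1108 to 1379 TPM). Of 8 endothelial or mural genes (25.3 to 43.6 TPM in sum) 2 passed 1 TPM, Pdgfrb at 31.8 ± 8.59 TPM and Pecam1 at 3.87 ± 0.373 TPM, 4 were below, and Cdh5 and Kcnj8 had no count (SD, n = 4 each). Of 6 choroid plexus genes (16.5 to 34.9 TPM in sum) 3 were above 1 TPM. These were Folr1 (15.2 ± 7.03 TPM), Otx2 (6.23 ± 3.46 TPM) and Clic6 (5.12 ± 1.98 TPM). Of the list 1 gene was open, and Ttr (0.488 ± 0.454 TPM) and Kl (0.220 ± 0.126 TPM) were below (SD, n = 4 each). Ttr was named after its value was seen. Ependymal genes were lowest in library 1 for 9 of 10 members and microglia genes for 8 of 10. Among all 9433 genes of at least 10 TPM, 2833 were lowest in library 1. The lists were not cut at that level. Their part in any SOX level was not tested.

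Since the design text names antagomers against miR204, the 3′ untranslated regions of the members' leading transcripts were searched for the letters AAAGGGA on the transcript strand, which pair with bases 2 to 8 of the microRNA. The mature sequence is given from RefSeq (GRCm38.p6), with these bases, the seed, in capitals. Under it stand the matches in members, with the 7 pairing bases in capitals.
mmu-miR-204-5p (chr19:22750610-22750631, plus strand): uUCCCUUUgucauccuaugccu
Sox4 (chr13:28949579-28949608, minus strand): gtgcattcacagcaaAAAGGGAttctgtag
Sox11 site 1 (chr12:27340664-27340693, minus strand): aaaagaaaaacacaaAAAGGGAccattgca
Sox11 site 2 (chr12:27340293-27340322, minus strand): atttttgtacagtgaAAAGGGAacaatctt
Sox11 site 3 (chr12:27336654-27336683, minus strand): tatagcatggcgtacAAAGGGAaatccact
Both SoxC genes held a match, Sox4 1 and Sox11 3, and the leading coding transcripts of at least 1000 bases of the other 8 members held none. These regions are long, 2780 bases in Sox4 and 6957 bases in Sox11. Of regions within 20% of the same length, 28.2% (of 1545) held the letters for Sox4 and 53.4% (of 193) for Sox11, and 13.3% of all 15761 regions did. Among the 8 members without a match the region searched ran from 294 bases in Sox5-202, where 3.13% of like length held the letters, to 6046 bases in Sox6-210, where 45.4% did. The other detected coding forms of Sox5 and Sox6 of at least 1000 bases held none either, with 4839 bases in Sox5-201. A match is a description of sequence only. The microRNA itself was not measured, and with no labelled treatment its effect on Sox4 or Sox11 was not tested.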

How the data were processed

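RNA of 4 libraries of sorted cells was measured. Per the labels' protocols, cDNA was prepared using the SMART-Seq v4 kit, and paired-end reads came from an Illumina HiSeq. Kallisto, sleuth and the build mm10 are named per the submitters' processing notes. Their versions and the transcript release were not given in the sources used here. Estimated counts in the deposited files are divided among transcripts by estimate, and TPM in the deposited files corrects them for effective length. No molecular identifiers are named, so limits cover counting error only.

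Of 99567 transcripts 98294 matched GENCODE M21 (GRCm38) by identifier, and TPM was summed per gene; the other 1273 were left out. Each of 19914 genes with a count was tested against 1 TPM on log2(TPM + 1) with limma (two-sided, with a mean-variance trend; call at an adjusted p under 0.05, Benjamini-Hochberg). Ratios within libraries used exact two-sided sign-flip tests. With 1 group, no groups were compared. All scripts with a fit across genes were tested on simulated data. Named were all members, all other SOX genes, at most the 3 highest and the lowest gene of each other list, transcripts of at least 5% of a member's TPM, and the 3 genes of most similar profile for 4 members. Some genes that this rule names are not reported here. The members, lists and tests were chosen with earlier results of these data known. Software was R 4.3.3, limma 3.58.1, edgeR 4.0.16, DESeq2 1.42.0, Python 3.11.15 and pandas 2.3.3; estimated counts were rounded for edgeR and for DESeq2 size factors.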

Additional observations from a re-analysis of the deposited data

Results flagged for a closer look

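Of 54 sets of 4 library values examined, 1 held a value set apart from the other 3 by a gap larger than Dixon's 95% critical value; chance gives about 1 in 20. The Sox6 fragment Sox6-207 held 22.3% of Sox6 TPM in library 4, against 14.6 to 15.5% in libraries 1 to 3, and rested on 34.7 counts there and on 11.2 to 14.6 counts in the others.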

How the results depend on the processing

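All 10 members stayed above 1 TPM, and all 130 single member results kept direction and call, under a level of 5 TPM, a pseudocount of 0.1, a filter at 5 estimated counts, rescaling over nuclear protein-coding genes, TMM, DESeq2 size factors, the most abundant transcript only, protein-coding transcripts only, edgeR, and each library left out. The 8 ratios kept their direction in all 88 alternatives, which here included CPM and coding transcripts of at least 1000 bases but not edgeR. Most of these could not have come out otherwise. Each ratio had the same sign in all 4 libraries, so leaving 1 out could not reverse its mean. A pseudocount or a factor per library cannot change which gene is higher. Ratios of genes with a single transcript do not change when transcripts are selected. The test of the ratios cannot pass with 4 libraries. Isoform shares depended most on processing. As a share of counts, Sox5-202 held 49.2%, Sox6-211 held 4.68% and Sox8-201 held 94.2%. Among protein-coding transcripts only, Sox5-202 held 49.2% and Sox6-211 held 45.5% of TPM. Order and group shares moved with short transcripts left out: SoxD held 3.95% of the TPM of the 10 genes in place of 10.4%. The length correction by construction raises short transcripts. Among other SOX genes, the open log2 difference of Sox14 (-0.14) was 0.0060 after rescaling and 0.68 with edgeR, and ran from -0.67 to 0.14 with 1 library left out; against 5 TPM, Sox7 was at -1.27. Counts of list genes above 1 TPM stayed within 1.5 times when a library was left out. No paired analysis was possible because there is 1 group. Depth limits the short Sox6 and Sox5 transcripts, many under 100 counts per library.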

Other observations

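For 4 members, the genes of at least 10 TPM whose centred log2(TPM + 1) profile over the 4 libraries lay nearest were read among 9223 protein-coding genes. With 4 values per gene close matches arise easily, so these are descriptions only. Nearest to Sox10 was Gjc3 (Euclidean distance 0.17, against a median of 1.18 over all genes), a connexin gene known from oligodendrocytes and Schwann cells, with 6.35, 14.3, 8.06 and 17.6 TPM in libraries 1 to 4. Pigb (0.20) and Med14 (0.20) followed. Nearest to Sox9 were Gzf1 (0.04), Armcx1 (0.04) and Cstf1 (0.04), against a median of 0.60. Nearest to Sox2 were Cenpp (0.02), Epn2 (0.03) and Pcmt1 (0.03), against a median of 0.46. Nearest to Sox4, the most constant member, were Jpt2 (0.0099), Ralgps2 (0.01) and the neural adhesion molecule gene Ncam1 (0.05), against a median of 0.44.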
